A study of Drosophila melanogaster with 4 samples.

Results

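RNA levels of males of Drosophila melanogaster trisomic for 2L (the left arm of chromosome 2) were compared with those of males with the normal chromosome complement, at the third larval instar. These are 2 of the 4 groups of the study, and the other 2 are trisomic and normal females. Trisomic males carry 3 copies of each 2L gene and normal males carry 2, with 4 biological replicates named per group in the labels and stocks kept at 25 degrees. The design text calls the diploid larvae Cantons. The strain of the trisomic larvae, how the extra arm was carried and the number of larvae per replicate are not stated in the labels, so a difference of strain or of exact stage and a difference of karyotype cannot be told apart. The values are the authors' group means in CPM (the share of a column's total, on a scale where each column sums to 1000000 over its transcript models). Models were averaged per gene, which leaves 1 value per gene and group. The means come with no spread, so no test or error accompanies any difference. Of 14161 genes, 6308 (44.5%) averaged 10 CPM or more across the groups and are called measured.

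An extra copy of an arm changes the dose of all its genes at once, and in the fly the RNA of such genes is known to follow the dose in part. The male gonad of the late larva is already a testis: stem cells and spermatogonia divide at its tip, and most of its volume is filled by growing primary spermatocytes. Spermatocytes switch on a large set of genes that hardly any other tissue uses, many of them for the later spermatid, and these RNAs are stored until they are translated. A whole male larva is therefore a mixture of a small organ with a private transcriptome and of large somatic tissues (fat body, muscle, gut, salivary gland, epidermis) that females have as well.

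Measured genes were sorted by sex, with both karyotypes weighing the same, so that the sorting did not use the direction of the male change. Genes whose mean CPM + 1 over both male groups was at least 8 times that over both female groups form the male-limited class (378 genes). Genes between 2 and 8 times form the male-high class (156 genes), genes between 0.5 and 2 times form the somatic class (5765 genes), and 8 genes were female-high. The RNA gene roX1, which is made in the male soma, was kept apart. The male change of a gene is the log2 of CPM + 1 in trisomic males over CPM + 1 in normal males, and "higher" or "lower" in counts means by at least 1.5-fold. By this rule the male-limited class sums higher in males: it had 9805 CPM in trisomic males and 23829 CPM in normal males. In trisomic females it summed to 210 CPM and in normal females to 183 CPM. The labelled sexes were borne out by roX1, which was set aside by name. It had 285 CPM in trisomic males and 506 CPM in normal males, against 22.4 CPM in trisomic females and 13.1 CPM in normal females.

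The male-limited class was lower in trisomic males almost throughout. Of its 378 genes, 339 (89.7%) were lower, 6 were higher and 33 stayed within 1.5-fold, and their median change was -1.40, which is 0.379-fold. The lowest 25% of these genes lay at or below -1.67. Over all 6308 genes, 29.5% were lower and 17% were higher, with a median of -0.18. The somatic class had 1432 lower genes (24.8%) and 1053 higher genes (18.3%), with a median of -0.11. Male-limited genes made up 2.11% of the summed values of measured genes in trisomic males, against 4.88% in normal males. Each gene entered these sums as the mean of its transcript models, so they are not shares of the column total. In whole larvae, fewer cells of a type and less RNA per cell cannot be told apart, and this holds for every tissue described here.

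**Figure D1:**
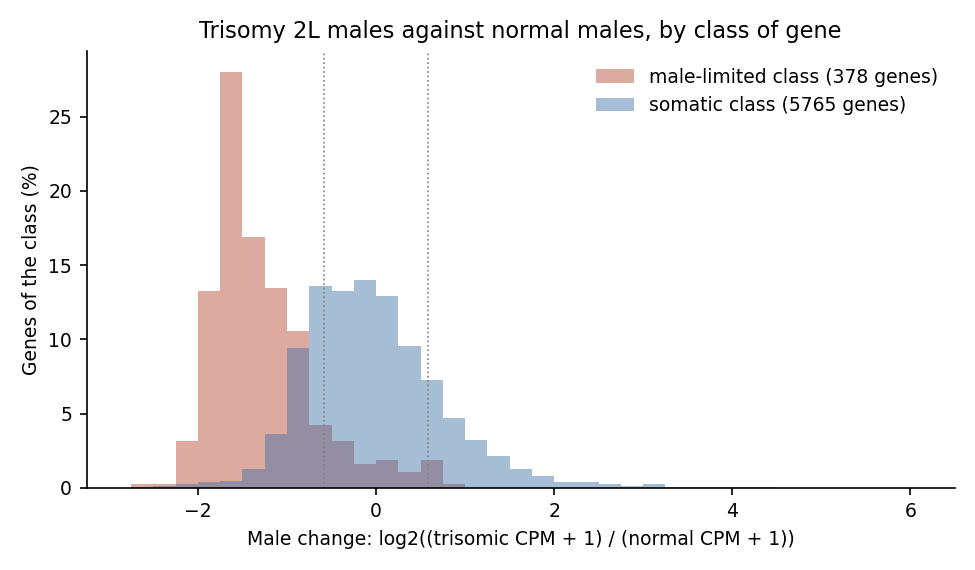
The x axis gives the male change on the log2 scale (CPM + 1, trisomic over normal males) in bins of 0.25, and the y axis the percentage of each class in a bin. Bars are the male-limited class (378 genes) and the somatic class (5765 genes), and dotted lines mark 1.5-fold: the male-limited class has its bulk between -2 and -1, with a median of -1.40, and the somatic class centres at -0.11.

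The scale itself matters for small differences. CPM are shares of a total, and the median change of somatic genes on 2R, 3L and 3R, the arms with no extra copy, was -0.24. Relative to that median, 1570 genes were higher and 1094 were lower in trisomic males. The male-limited median then stood at -1.16, and the somatic median turned to 0.12. Values below are on the deposited scale, and adding 0.24 to a change gives it relative to those arms.

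The 5 male-limited genes with the highest CPM in males show the range of responses. CG12699 had 119.6 CPM in trisomic males, against 367 CPM in normal males, and sip2 (SIP2 in the files) had 100.5 CPM, against 345 CPM. The leucyl aminopeptidase genes S-Lap1 (CG6372) and S-Lap4 (CG32064), whose products are major proteins of mature sperm, had 163 and 121 CPM in trisomic males, against 304 and 320.2 CPM in normal males. These 4 genes were lower by 0.90 to 1.77 on the log2 scale. CG4836 was the exception, with 232 CPM in trisomic males and 192 CPM in normal males, a change of 0.27. The exuperantia gene exu, known for localising RNA in germ cells and named here after its values were seen, had 91.3 CPM in trisomic males and 298 CPM in normal males (-1.69).

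Depth of decrease did not go with level inside this class. Among the 95 genes with the lowest mean CPM in males (19.4 to 24.4 CPM) the median change was -1.38, and among the 95 with the highest (49.8 to 243 CPM) it was -1.39. The largest decreases were those of CG13898, with 6.87 CPM in trisomic males against 46.6 CPM in normal males (-2.60), CG31391 (-2.26), CG30039 (-2.19), CG18449 (-2.12) and robl62A (-2.12). The robl62A gene, which encodes a dynein light chain of the roadblock family, had 23.4 CPM in trisomic males and 105 CPM in normal males. CG31226, CG4714, CG12861, t-Grip84 (CG7716, a testis form of a gamma-tubulin ring protein) and CG12860 followed, between -2.09 and -2.03. Without the minimum of 10 CPM the class held 828 genes, of which 736 were lower, with a median of -1.34.

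Lists of germline and testis genes were then followed in the order of spermatogenesis. The list members with low CPM are included here, since most early genes lie under the minimum. Over all 14161 genes the median male change without a minimum was -0.18, with 3738 lower and 1767 higher.

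Early germline genes act in stem cells, spermatogonia and the piRNA pathway, and they were close to the median of all genes. The 20 members had a median of -0.36, with 5 lower and 1 higher. These ratios rest on low values, some near the 0.845 CPM that recurs in normal males, where the added 1 CPM draws changes toward 0. Only 2 of the 20 met the 8-fold rule of the male-limited class, but with 1 CPM added a gene of few CPM cannot meet it. In trisomic females vas and aub had 0.41 and 1.05 CPM. By contrast, piwi had 3.98 CPM there and 3.62 CPM in trisomic males, so other tissues may contribute to such members. Vasa (vas), the helicase that marks germ cells, lies on 2L and had 3.20 CPM in trisomic males and 1.61 CPM in normal males. The piRNA gene aub, also on 2L, had 6.77 and 6.38 CPM in trisomic and normal males. Off 2L, the nuage genes krimp and mael had 2.46 and 8.65 CPM in trisomic males, against 7.18 and 16.6 CPM in normal males. In females, at 1.54 CPM or less, krimp changed by -0.82 and mael by -0.14. Rbp4, an RNA-binding protein gene of early spermatocytes, had 10.8 CPM in trisomic males and 9.52 CPM in normal males. Only tud passed the minimum (174 and 227 CPM in trisomic and normal males, -0.38), and it stood at a like level in females. The 6 genes of the somatic gonad list, which mark cyst, hub and terminal cells but are used in other tissues too, had a median of 0.06. None of them was lower, and the 2L gene Fas3 was higher (52.2 CPM in trisomic males and 31.2 CPM in normal males).

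Transcription regulators of spermatocytes, the testis forms of the meiosis arrest and TAF complexes, were intermediate. Their 12 genes had a median of -0.50, with 6 lower and none higher. The testis TAF genes can and sa had 6.58 and 4.41 CPM in trisomic males, against 14.2 and 9.53 CPM in normal males. The arrest gene aly had 3.87 CPM in trisomic males and 6.57 CPM in normal males, while topi had 9.13 CPM and 9.81 CPM. The 2L gene rye (Taf12L in the files) had 9.23 CPM in trisomic males, against 6.81 CPM in normal males. No member reached the minimum of 10 CPM, so these ratios rest on low values.

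Genes of the meiotic divisions and of the spermatid were lower still. Boule (bol), an RNA-binding protein gene that the meiotic entry needs, had 27.9 CPM in trisomic males and 93.8 CPM in normal males (-1.72). The meiotic Cdc25 phosphatase gene twe, on 2L, had 19.4 CPM in trisomic males and 37.2 CPM in normal males (-0.91). Of 6 meiotic genes found, 5 were lower, and the median was -1.01. Among these 5, tef stood at a like level in females and changed by -0.83 in males and -0.75 in females. The sixth, fws, is a Golgi tethering gene of general use, and had 28.4 CPM in trisomic males and 27.3 CPM in normal males.

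Mst and sperm tail genes, many of which build the flagellum, were lower as a group. All 14 measured members of 17 were lower, with a median of -1.68. Don juan (dj) had 29.0 CPM in trisomic males and 113 CPM in normal males, and ocnus (ocn) had 34.6 CPM and 114 CPM. Mst84Dd (-2.02) and Mst84Db (-1.97) were lowest, though the neighbouring Mst84D genes are alike enough to share reads. The testis beta-tubulin gene betaTub85D had 109 CPM in trisomic males and 176 CPM in normal males, a smaller decrease of -0.68. Under the minimum, Tektin-A (-0.13) and Tektin-C (-0.14), genes of the microtubule lattice of the tail, stayed within 1.5-fold.

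Sperm chromatin genes, whose small basic products replace the histones in the sperm head, were all lower. Mst77F had 67.1 CPM in trisomic males and 236 CPM in normal males (-1.80). The protamine-like genes ProtA (Mst35Ba) and ProtB (Mst35Bb), neighbours on 2L that may share reads, had 10.4 and 14.7 CPM in trisomic males, against 28.7 and 37.9 CPM in normal males. Prtl99C (CG15510), under the minimum, changed by -1.54.

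Testis forms of mitochondrial proteins, many of them for the fused mitochondria of the spermatid, were lower in 11 of 13 cases. The mitofusin gene fzo, which fuses spermatid mitochondria, had 20.2 CPM in trisomic males and 67.7 CPM in normal males. COX4L (CG10396), a form of a cytochrome c oxidase subunit, had 12.2 CPM in trisomic males and 49.9 CPM in normal males (-1.95). The Tim50 form ttm2 (-1.76), tomboy40 (-1.67) and knon (CG7813, -1.19) were lower too. Cyt-c-d, the cytochrome c gene needed for sperm individualisation, lies on 2L and had 31.4 CPM in trisomic males and 61.8 CPM in normal males. Of the remaining 2, Porin2 (2L) had 24.8 CPM in trisomic males and 25.5 CPM in normal males. The other was ATPsynbetaL (CG5389), with a mean under the minimum, at 13.2 CPM in trisomic males and 5.82 CPM in normal males.

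The sperm leucyl aminopeptidases were split. S-Lap1, S-Lap2 (CG32351), S-Lap3 (CG32063) and S-Lap4 were lower, by 0.76 to 1.40 on the log2 scale. S-Lap7 (CG13340, -0.56), S-Lap8 (CG4439, -0.34), S-Lap5 (CG18369, -0.01) and loopin-1 (0.05) stayed within 1.5-fold. The list as a whole summed to 706 CPM in trisomic males and 1322 CPM in normal males.

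Testis forms of the proteasome and of the translation machinery were also mostly lower. Of 14 proteasome forms, 11 were lower, with a median of -1.03, and only Rpt6R passed the minimum, with 14.5 CPM in trisomic males and 33.3 CPM in normal males. Of 11 ribosomal and translation genes with high germline use, 9 were lower, with a median of -0.78. Only 5 of the 11 met the 8-fold rule of the male-limited class. RpS15Ab, among the 9, stood at a like level in females and changed by -0.61 in males and -0.56 in females. The cap-binding genes eIF4E-3 and eIF4E-5 had 17.5 and 15.6 CPM in trisomic males, against 52.4 and 47.5 CPM in normal males. The initiation factor gene eIF4G2, which spermatocytes need for meiosis, had 79.1 CPM in trisomic males and 136 CPM in normal males (-0.77).

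**Figure D2:**
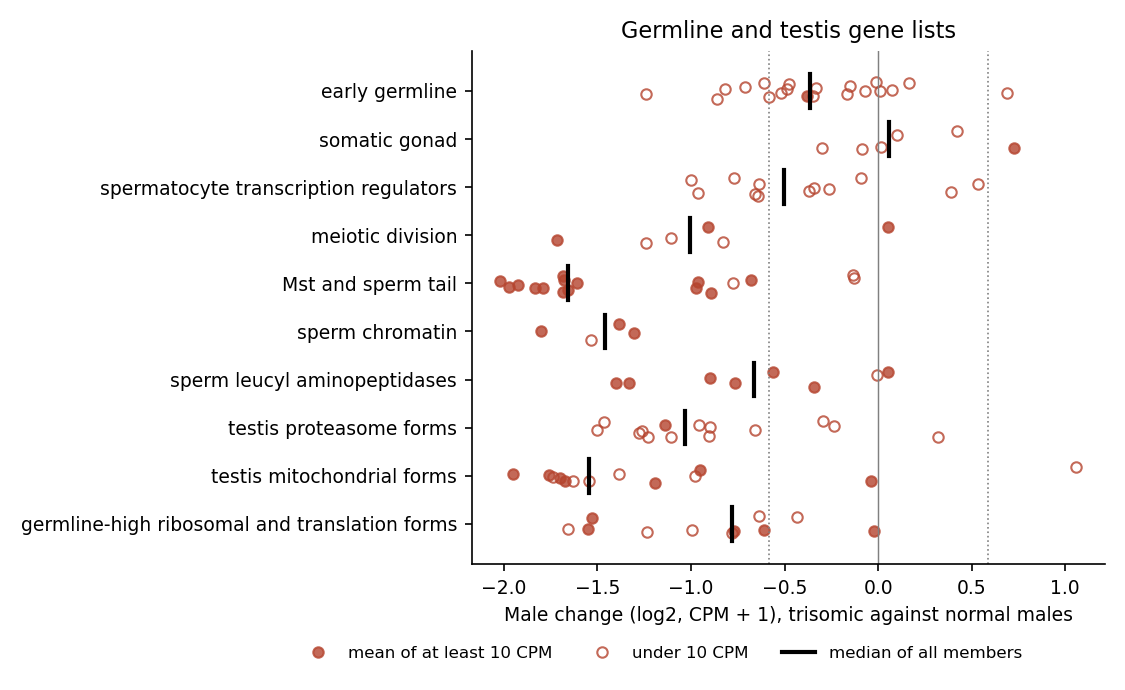
Each row is a gene list, from early germline at the top to translation forms at the bottom, and the x axis gives the male change on the log2 scale (CPM + 1, trisomic over normal males). Filled points had a mean of at least 10 CPM, open points less, and bars are medians of all members: they run from 0.06 (somatic gonad) and -0.36 (early germline) to -1.66 (Mst and sperm tail).

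Many testis genes are second copies of a gene that the whole animal uses, which allows each to be set beside its general form. The pairs given here were chosen after their values were seen, so they are examples. fzo changed by -1.70 and its general counterpart Marf by 0.86, with 78.7 CPM of Marf in trisomic males and 42.9 CPM in normal males. Cyt-c-d changed by -0.95 while Cyt-c-p, the respiratory form, changed by 1.16. betaTub85D changed by -0.68 and the ubiquitous betaTub56D by 0.74. In other pairs the general form was lower as well: eIF4E-3 changed by -1.53 beside eIF-4E at -0.72, and robl62A by -2.12 beside robl at -1.03. Hsp60B, at 0.73, changed about as much as Hsp60, at 0.72.

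Male-limited genes on 2L were lower by less than those on the other large autosomal arms. The 107 male-limited genes on 2L had a median change of -1.05, and the 246 on 2R, 3L and 3R had -1.59, so 2L genes stood higher by 0.54, which is 1.45-fold. Of the 2L genes 90 were lower and 5 higher, and of the genes on the other 3 arms 227 were lower and 1 higher. The changes were tightly bunched: 177 of the 246 genes off 2L (72.0%) lay between -2 and -1.25, and 81 of the 107 on 2L (75.7%) lay between -1.5 and -0.75. The 3 arms without an extra copy had medians of -1.61 (2R), -1.57 (3L) and -1.59 (3R). Median transcript lengths were alike, at 1558 nt on 2L and 1566 nt on those arms.

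In the somatic class the same comparison gave 0.41, which is 1.33-fold. The 1122 somatic 2L genes had a median of 0.17, with 352 higher and 62 lower, and the 3715 on 2R, 3L and 3R had -0.24, with 530 higher and 1170 lower. In females the somatic 2L excess was 0.46. Among male-high genes it was 0.63, over 40 genes on 2L and 104 on the other arms. Whether these values differ was not tested.

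On the X, which males carry in a single copy, the 25 male-limited genes had a median of -1.43 and stood 0.17 above the genes of 2R, 3L and 3R. The 834 somatic X genes had a median of -0.00 and stood 0.24 above the somatic genes of those arms. In females the same somatic X difference was 0.25, so it was not particular to males. The 59 somatic genes of chromosome 4 had a median of -0.56 in males and -0.47 in females. Male-limited genes were 8.43% of the measured genes on 2L, 6.05% on 2R, 3L and 3R, and 2.86% on the X.

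**Figure D3:**
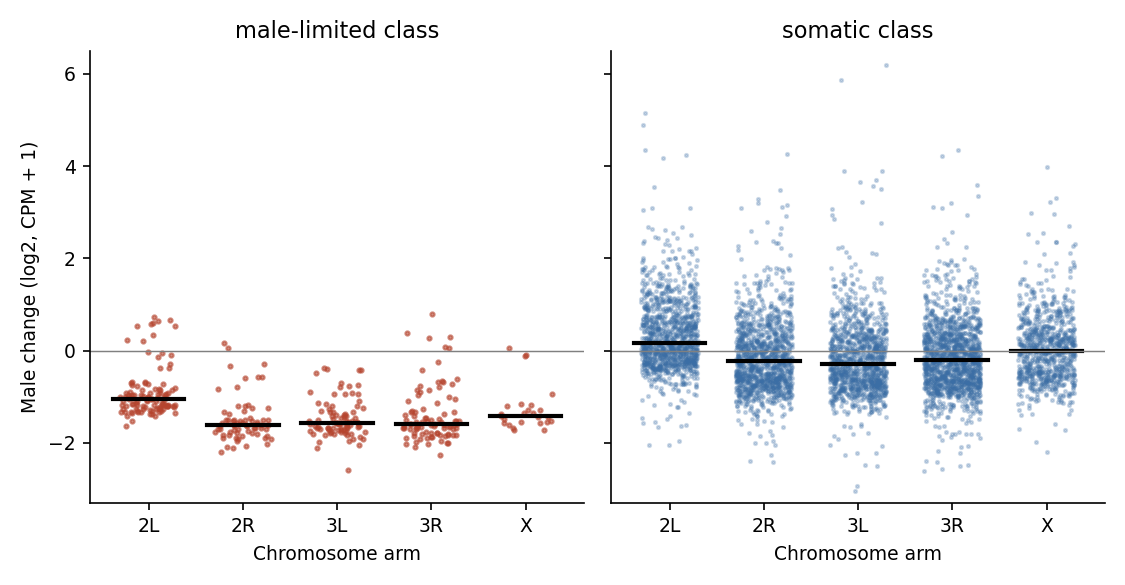
The y axis gives the male change on the log2 scale (CPM + 1, trisomic over normal males) of each measured gene by chromosome arm, with the male-limited class left and the somatic class right. Black bars are medians: on 2L they stand at -1.05 and 0.17, against -1.59 and -0.24 over 2R, 3L and 3R together.

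The male-limited genes that were not lower numbered 39, of which 17 lay on 2L, 19 on 2R, 3L and 3R and 3 on the X. Their median transcript length was 2356 nt, against 1422 nt for those that were lower. The 6 that were higher were led by CG31029 on 3R, with 28.7 CPM in trisomic males and 16.1 CPM in normal males (0.80), and the other 5 lie on 2L. Among these were both testis chaperonin genes, Hsp60B (44.7 CPM in trisomic males and 26.5 CPM in normal males), which spermatid individualisation needs, and Hsp60C (79.9 and 51.1 CPM). TTLL4B (CG3964) and TTLL3B, of the family of enzymes that add amino acids to tubulin, changed by 0.67 and 0.59, and nis (CG10869) by 0.59.

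Just under 1.5-fold stood Gpo3 (CG7311, 0.54) and Vha68-3 (CG5075, 0.53), copies on 2L of a glycerophosphate oxidase gene and of a proton pump subunit gene, then CG31210 (0.38) and CG18266 (0.35). The sperm tail channel gene Pkd2 changed by 0.23 and the testis Hsc70-2 by 0.30. The translational regulator orb2 and the kinesin gene Klp59D, at -0.43 and -0.58, also stayed within 1.5-fold. At the edge of the class itself, Pof and twe lay just inside the 8-fold limit (8.26 and 8.29 times) and CG6752 and cup just outside (7.51 and 7.54 times). Their male changes were -1.19 and -0.91 inside and -1.51 and -0.47 outside.

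Somatic genes of males moved largely with those of females. Across the 5750 somatic genes with a known transcript length, the male and the female change were correlated, with r = 0.90 (Pearson) and rho = 0.89 (Spearman). Genes are not replicates, and each point shares its transcript length and arm between the sexes. Over all 6308 genes, 15.3% were higher and 18.3% lower in trisomic females. Of the 1053 somatic genes higher in males, 769 (73.0%) were also higher in females, which is 82.2% of the 935 higher in females. Of the 1432 lower in males, 926 (64.7%) were lower in females, which is 82.8% of the 1118 lower there. In 7 somatic genes the sexes went opposite ways by at least 1.5-fold. In the male-limited class the same r was 0.16 and rho 0.25 over 377 genes, but 374 measured genes lie at or under a value of 2.81 CPM that recurs in the trisomic female column, so their female change carries little information.

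Of 13 glycolysis genes 12 were higher in trisomic males, with a median of 1.51 in males and 0.69 in females. Aldolase (Ald) had 524 CPM in trisomic males and 171 CPM in normal males, and phosphoglycerate mutase (Pglym78) had 115 CPM and 39.6 CPM. Phosphoglucomutase (Pgm), a step outside the linear pathway, was the member within 1.5-fold, at 0.09. In the tricarboxylic acid cycle 10 of 16 genes were higher and none was lower, with a median of 0.80 in males and 0.33 in females. Citrate synthase (kdn) had 140 CPM in trisomic males and 36.9 CPM in normal males, fumarase (Fum1, l(1)G0255 in the files) had 92.3 CPM and 23.8 CPM, and aconitase (Acon) had 407 CPM and 136 CPM. Malic enzyme (Men) had 280.2 CPM in trisomic males and 83.0 CPM in normal males. The 6 members within 1.5-fold include Idh (-0.07) and the succinate dehydrogenase gene SdhC (0.07). The list also holds a male-limited gene, CG33791, a testis form of the oxoglutarate dehydrogenase Nc73EF: it changed by -0.39 where Nc73EF changed by 0.88.

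Muscle genes were higher in 16 of 21 cases, with a median of 1.12 in males and 0.63 in females. Tropomyosin 2 (Tm2) had 552 CPM in trisomic males and 142 CPM in normal males, paramyosin (Prm) had 459 CPM and 97.9 CPM, and the calcium pump SERCA (Ca-P60A in the files) had 494 CPM and 151 CPM. The muscle actin Act57B had 2375 CPM in trisomic males and 1060 CPM in normal males. Zasp66, a protein of the sarcomere's Z-disc, was the lower member, at -0.83. Haemocyte and basement membrane genes were higher in 14 of 17 cases, with medians of 1.01 in males and 1.19 in females. Hemolectin (Hml), the marker of plasmatocytes, had 158 CPM in trisomic males and 61.6 CPM in normal males, and the laminin gene LanA had 234 CPM and 132 CPM. All 4 measured antimicrobial genes were higher, and with no minimum 13 of 14 were. Drosocin (Dro) had 7.06 CPM in trisomic males and 0.432 CPM in normal males, in the range of the value of 0.845 CPM that recurs in the normal male column.

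Midgut genes parted by kind of enzyme. Of 20 carbohydrase and lysozyme genes 16 were higher and none was lower, with a median of 1.26 in males and 0.94 in females. The alpha-mannosidase genes LManIII (CG9463) and LManV (CG9466) had 133 and 446 CPM in trisomic males, against 2.77 and 20.9 CPM in normal males. The glucosidase tobi, a target of insulin and glucagon-like signals, had 33.6 CPM in trisomic males and 1.86 CPM in normal males. LysB, a digestive lysozyme, had 1456 CPM in trisomic males and 775 CPM in normal males. Of 22 midgut protease genes 8 were higher and 6 lower, with medians of 0.19 in males and -0.60 in females. These genes are short, and set against somatic genes of like length their male median was 0.62. Jon25Bi (2.68) and Jon25Bii (3.05), on 2L, stood highest and epsilonTry (-2.01) lowest, and the members of these clusters may share reads.

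The fat body list had 8 of 14 genes higher, 2 lower and 4 within 1.5-fold. Its median was 0.68 in males and 0.53 in females, but the 9 members off 2L had a male median of 0.25. Alcohol dehydrogenase (Adh), on 2L, had 962 CPM in trisomic males and 112 CPM in normal males (3.09), and the glycerol phosphate dehydrogenase gene Gpdh, also on 2L, had 121 CPM and 34.0 CPM. The lipid droplet gene Lsd-1 was lower, with 132 CPM in trisomic males and 328 CPM in normal males. So was Lsp2, with 8546 CPM in trisomic males and 14064 CPM in normal males (-0.72). Fbp1 (-0.42) and Fbp2 (-0.38) stayed within 1.5-fold. In lipid synthesis, 5 of 14 genes were higher and 3 lower. Acetyl-CoA carboxylase (ACC, CG11198) had 90.9 CPM in trisomic males and 32.1 CPM in normal males, and the lipase gene Lip3 had 19.1 CPM and 4.48 CPM.

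Aminoacyl-tRNA synthetase genes were higher in 8 of 16 cases and lower in 2 (median 0.58 in males and 0.30 in females), and 0.33 over the 13 off 2L. Alanyl-tRNA synthetase (Aats-ala) had 97.1 CPM in trisomic males and 38.6 CPM in normal males. Larval cuticle genes had 4 of 10 higher and 3 lower. Cpr47Eg had 90.7 CPM in trisomic males and 3.81 CPM in normal males, while Lcp1 had 1658 CPM and 3463 CPM.

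The salivary glands store glue proteins at the end of larval life in response to ecdysone. Of 9 measured glue genes 7 were lower, with a median of -1.98 in males and -1.64 in females. Sgs3 had 1075 CPM in trisomic males and 4442 CPM in normal males, and Sgs7 had 601 CPM and 2820.1 CPM. The new glue gene ng3, made earlier in larval life, was higher, with 388 CPM in trisomic males and 88.3 CPM in normal males. Of 3 measured genes of steroid synthesis and activation, spok (9.89 and 23.8 CPM in trisomic and normal males) and shd (44.0 and 97.9 CPM) were lower, and sro (-0.29) stayed within 1.5-fold. With no minimum, 3 of the 9 listed were lower and the median was -0.38.

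Of 12 measured ecdysone response genes 6 were lower in trisomic males and none was higher, with a median of -0.64, while the female median was -0.05 with 1 lower. ImpE2, induced by ecdysone in imaginal discs, had 58.2 CPM in trisomic males and 136 CPM in normal males, and 114 CPM in trisomic females and 110.1 CPM in normal females. The early gene broad (br) had 33.6 CPM in trisomic males and 70.7 CPM in normal males, and 65.0 and 64.8 CPM in trisomic and normal females. The early gene Eip75B changed by -0.83 in males and -0.02 in females. With no minimum, 10 of 19 were lower in males and 1 was higher. The difference between the sexes was not tested, and larval age within the instar is not given in the labels.

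Proteasome genes were lower in 17 of 30 cases and higher in 1, with a median of -0.72 in males and -0.57 in females, and -0.36 against somatic genes of like length. The core subunit gene Prosbeta3 had 74.2 CPM in trisomic males and 180.1 CPM in normal males, and the lid gene Rpn6 had 122 CPM and 249 CPM. Of the 6 ATPases of the base, Tbp-1 (-1.09) and Pros45 (-0.75) were lower and the other 4 lay between -0.50 and 0.49. Rpn1, a large base subunit, was the higher member (0.69).

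Over the 16 measured heat shock and chaperone genes, 6 were higher and 5 lower, with a median of 0.23. Among the lower ones, Hsp67Bc had 7.07 CPM in trisomic males and 44.1 CPM in normal males, Hsp23 had 299 CPM and 1080.1 CPM, and Hsp26 had 83.6 CPM and 171 CPM. Hsp67Ba, another small heat shock gene, stood at 0.49. Of the chaperone genes of the endoplasmic reticulum, Gp93 was higher at 202 CPM in trisomic males and 76.2 CPM in normal males, and so were Calreticulin (Crc), at 459 CPM and 221 CPM, and Pdi (0.79), while Hsc70-3 stood at 0.16. The cytosolic Hsc70-4 had 1946 CPM in trisomic males and 1030.2 CPM in normal males. Most of these members were picked after their values were seen.

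Other lists stayed near the median of all genes. Cytosolic ribosomal protein genes had 10 higher, 10 lower and 60 within 1.5-fold, with a median of -0.27 that turned to 0.10 against somatic genes of like length. The largest change among them was that of RpL4, with 740.4 CPM in trisomic males and 247 CPM in normal males. Mitochondrial ribosomal genes had a median of -0.29, or 0.09 against genes of like length, with 4 of 25 lower and 1 higher. The vacuolar ATPase list (0.08, 17 genes, 1 higher) and the replication and cyclin list (-0.15, 19 genes, 4 lower and 1 higher) had few members past 1.5-fold, and the second of these turns above 0 relative to 2R, 3L and 3R. CycA, a mitotic cyclin, had 23.0 CPM in trisomic males and 45.7 CPM in normal males. Antioxidant and metal genes (-0.19, 11 genes) turned likewise, with thioredoxin reductase (Trxr-1) higher at 1.33.

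Of 11 imaginal disc genes 3 were lower and 1 higher, with a median of -0.48 in males and -0.15 in females. This share of lower genes is near the 29.5% of all measured genes. With no minimum, 3 of 18 were lower and the male median was -0.19, against -0.18 over all genes. The wing selector gene ap had 15.8 CPM in trisomic males and 32.1 CPM in normal males. The Hedgehog effector ci, on chromosome 4, had 51.4 CPM and 99.1 CPM. The growth factor gene Idgf3, on 2L, was higher (204 and 106 CPM in trisomic and normal males). Of 6 measured neuronal genes the synaptic gene Syt1, on 2L, was higher (0.80) and Appl was lower (-0.89). In the Malpighian tubule list, of 6 measured genes, Uro, the urate oxidase gene on 2L, was higher (0.67) and the phosphate transporter gene NaPi-T was lower (-1.20).

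**Figure D4:**
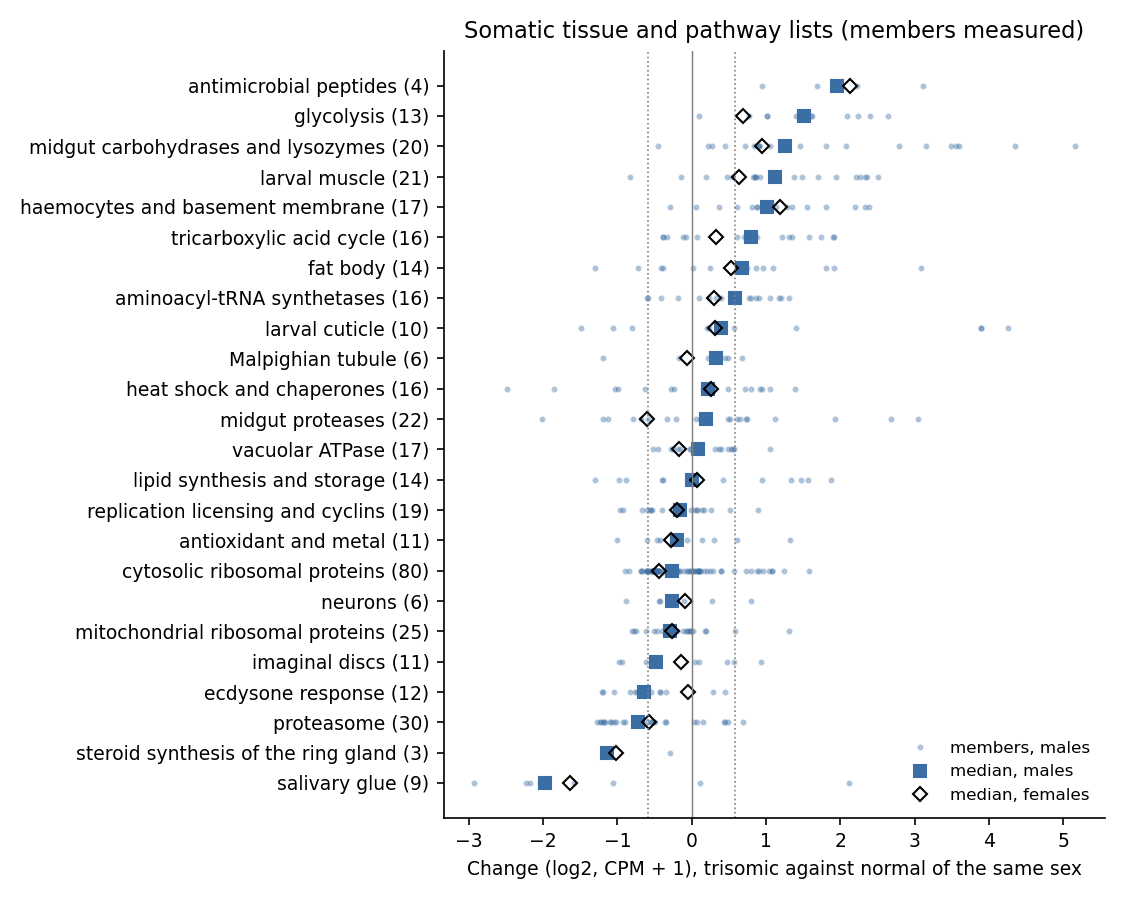
Each row is a somatic tissue or pathway list with its number of measured members, and the x axis gives the change on the log2 scale (CPM + 1, trisomic over normal larvae of the same sex). Dots are members in males, squares the male medians and open diamonds the female medians: medians run from 1.95 (antimicrobial peptides) to -1.98 (salivary glue) in males, and those of the sexes lie farthest apart for glycolysis and midgut proteases.

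The largest changes of single somatic genes exceeded any list median. CG3819 had 199 CPM in trisomic males and 1.74 CPM in normal males (6.19), and CG33267 had 91.8 CPM and 0.589 CPM (5.87), the second value lying under the 0.845 CPM that recurs in normal males. CG12506, CG6296, CG13947, CG15533 and CG13946 changed by 4.18 to 4.90, and CG13947 reached 602 CPM in trisomic males, against 30.9 CPM in normal males. Of the 10 largest increases, 5 were on 2L, where 1122 of the 5765 somatic genes lie. They include the related alpha-mannosidase genes LManIII and LManV, so they are not all separate cases. At the other end, CREG had 97.5 CPM in trisomic males and 521 CPM in normal males (-2.41). CG11892 (-2.56), CG11854 (-2.50), CG34296 (-2.48) and CG16926 (-2.42) were similar, and these 5 genes changed by -2.41 to -1.53 in females. CG34244 (5.10 CPM in trisomic males and 49.3 CPM in normal males), CG13606 (3.60 and 27.2 CPM) and CG7924 (25.0 and 146 CPM) changed by -3.04 to -2.51 in males and by -0.87 to -0.66 in females.

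Change also went with transcript length, in both sexes. Measured genes were put in 10 bins of transcript length. From the shortest bin to the longest, the somatic median in males ran from -0.36 to 0.05, and in females from -0.42 to 0.29. The male-limited median ran from -1.61 in the shortest bin to -0.96 in bin 8, and was -1.17 and -1.19 in the last 2 bins, which hold 11 and 7 of its genes. Within classes, Spearman's rho between length and the male change was 0.19 over 5750 somatic genes and 0.37 over 377 male-limited genes. With each gene set against the somatic genes of its own bin, 331 of these 377 were lower and their median was -1.18. By the same measure the medians of the Mst and sperm tail list (-1.29), sperm chromatin (-1.02), testis mitochondrial forms (-1.46) and leucyl aminopeptidases (-0.68) kept their sign.

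**Figure D5:**
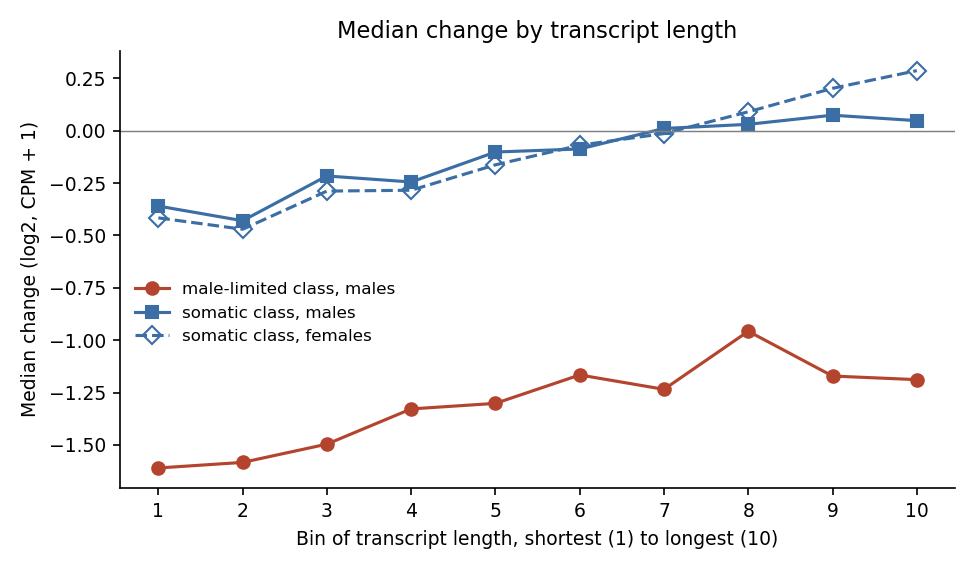
The x axis gives 10 bins of transcript length, shortest to longest, and the y axis the median change on the log2 scale (CPM + 1, trisomic over normal larvae of the same sex). Circles are male-limited genes in males, squares somatic genes in males and open diamonds somatic genes in females: all 3 lines are higher at long than at short transcripts, and the male-limited line stays below -0.9 in every bin.

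Genes that set the dose of the male X were on both sides. roX1, an RNA of the complex that coats the male X, had 285 CPM in trisomic males and 506 CPM in normal males (-0.82), and roX2 had 6.48 CPM and 11.0 CPM. The protein genes msl-1 and msl-2 of that complex lie on 2L and were higher in trisomic males, by 0.66 and 0.91. Sxl (-0.52), dsx (-0.34) and fru (0.35), genes of sex determination, stayed within 1.5-fold. The means of roX2, dsx and fru lay under the minimum of 10 CPM, so their changes rest on low values. For dsx these were 2.68 CPM in trisomic males and 3.65 CPM in normal males.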

How the data were processed

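Per the labels' protocols, larval total RNA was extracted with TRIZOL and made into libraries with the TruSeq RNA kit. TopHat, HTSeq and build dm3 appear in the submitters' processing notes; which annotation was used, and whether counting used strand, is not stated there. The deposited CPM values are means per group, averaged by the authors per the file headers. Their unit is inferred, since each column sums to 1000000 over the autosomal and X tables together. Library depth is unknown, so no interval could be given. A single low value recurs in each column (401 of 22738 transcript models at 0.389 CPM in trisomic males, 373 at 0.845 in normal males, 608 at 2.81 in trisomic females, 645 at 2.22 in normal females). Levels near it are not firm evidence of expression. The germline and testis lists were followed with no minimum, and some of their members lie at such levels.

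Here transcript models were averaged per gene, a pseudocount of 1 CPM was added, and genes with a mean of at least 10 CPM were kept. Genes were counted past 1.5-fold, with no test, because the columns are group means. Transcript lengths (6292 measured genes) and current symbols (14080 names) came from an annotation of another build, Ensembl release 115, whose coordinates were not used. Values of near-identical or overlapping genes are uncertain, and 55 measured genes have the same values as another gene. Steps were tested on simulated data. The members, the classes and the 34 gene lists were chosen with earlier results of these data known.

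The rule for naming genes took, per class, the 10 largest increases and decreases and the 5 most abundant. Per list it took the 3 largest changes and the 2 most abundant. It also took the genes at the 8-fold limit and roX1, roX2, msl-1, msl-2, Sxl, dsx and fru. Not every gene that met the rule is named above, and Lsp1beta, Mhc, Eno, vkg and Dpt are among those left out. Other list members and male-limited genes that were not lower were named after their values were seen. Promoter elements were not analysed here. Python 3.11.15, numpy 2.4.6, pandas 2.3.3 and matplotlib 3.10.9 were used.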

Additional observations from a re-analysis of the deposited data

Results flagged for a closer look

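In 4 of the genes named, the change in trisomic larvae had opposite signs in males and females, each by at least 1.5-fold; the columns are group means, so the difference between the sexes was not tested. Urate oxidase (Uro), an enzyme of the Malpighian tubule encoded on 2L, changed by 0.67 in males and by -0.65 in females. It had 108.9 CPM in trisomic males and 68.0 CPM in normal males, and 73.4 CPM in trisomic females and 116 CPM in normal females. The RNA gene roX1 changed by -0.82 in males and by 0.73 in females, where it had 22.4 CPM in trisomic and 13.1 CPM in normal larvae. The protamine-like gene Mst35Ba changed by -1.38 in males and 1.24 in females, and eIF4E-3 by -1.53 in males and 0.82 in females. Their female levels were at most 1.57 CPM, below the value of 2.81 CPM that recurs in the trisomic female column, and were not read as expression.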

How the results depend on the processing

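No paired analysis was possible because the columns are group means that carry no replicate numbers; leaving out replicates was not run for the same reason. No main result changed sign under an alternative except the somatic median (-0.11), which became 0.12 with the median of 2R, 3L and 3R somatic genes set to 0 and 0 with changes centred by transcript length. That rescaling gave 1094 lower genes and a male-limited median of -1.16. Length centring, added after seeing the data, gave -1.18, and a pseudocount of 5 gave -1.25. With no minimum level, 1767 genes were higher and 3738 lower, 736 of 828 male-limited genes were lower and the somatic 2L excess fell to 0.27. At a mean of at least 20 CPM, 1136 genes were lower, 127 of them among 139 male-limited genes. A 32-fold limit left 122 of 133 male-limited genes lower. At 2-fold, 533 genes were higher and 695 lower. The other 83 values stayed within 0.1 (log2) or 1.5 times, among them the male-limited 2L excess, which ranged between 0.45 and 0.58. Of the values for single lists, 184 stayed within these limits and 111 did not. Because only group means of unknown depth were used, no difference could be set against the spread between larvae, and low genes such as the spermatocyte regulators are the least certain.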

Other observations

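The male-high class, set by sex ratio alone, had a male median between those of the male-limited and somatic classes. The 156 male-high genes, at 2 to 8 times the female level, had 88 lower and 13 higher in trisomic males, with a median of -0.73 in males and -0.09 in females. They summed to 7165 CPM in trisomic males and 10781 CPM in normal males.

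Tyrosine hydroxylase (ple), which makes the precursor of dopamine and of cuticle pigments, had 74.4 CPM in trisomic males and 316 CPM in normal males (-2.07). In females it had 183 CPM in trisomic and 232 CPM in normal larvae (-0.34). Dopa decarboxylase (Ddc), the next enzyme, on 2L, had 83.7 CPM in trisomic males and 85.5 CPM in normal males, and 147 CPM in trisomic females and 74.5 CPM in normal females. Both genes were picked after their values were seen, and the difference between the sexes was not tested.

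Transcript models of 7 genes on the Y, whose large fertility genes are transcribed in spermatocytes, all lay at or under 4.56 CPM in males. In 6 of them the value was lower in trisomic males, as in the dynein gene kl-2 (1.01 CPM in trisomic males and 4.56 CPM in normal males). In trisomic females, which have no Y in the normal complement, 4 of the 7 stood at the recurring value of 2.81 CPM, so levels of this size cannot be read as expression.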
